A study of Mus musculus with 8 samples.

Results

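CD8+ T cells that had been primed by migratory CD103+ dendritic cells (DC) were compared with T cells primed by 2 other DC subsets, and the genes that stood apart from each of those groups are described. All 8 libraries came from OT-I T cells of the C57BL/6 strain, which carry a transgenic receptor for an ovalbumin peptide. In every group the T cells had spent 72 h in culture with DC of a single subset that carried antigen, and only T cells that had divided were sorted for RNA sequencing. The CD103 DC group held 3 of the 8 libraries, with migratory CD103+ DC as the partner given in the labels. The CD8a DC group held 3 libraries, with lymph node resident CD8a+ DC, and the CD11b DC group held 2, numbered 2 and 3, with migratory CD11b+ DC. The labels name no T cells without DC, so every value is relative to another DC partner, and they leave unstated whether libraries of the same group were separate cultures or mice. All p-values thus refer only to the spread among these libraries, which may be technical.

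DC that carry antigen to lymph nodes do more than start T cell division. They also set which homing receptors the daughter cells display, and these receptors decide which tissues the cells can enter. In mouse gut lymph nodes, CD103+ DC are known for making retinoic acid, which raises the alpha 4 beta 7 integrin and the chemokine receptor CCR9 on T cells. T cells primed in skin lymph nodes instead acquire ligands for the endothelial selectins and the chemokine receptors CCR4 and CCR8. Selectin ligands are sugar structures on proteins such as PSGL-1, and they form only where the T cell expresses the glycosyltransferases that build them.

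Both sides of this choice were among the genes with the clearest group differences. Gcnt1 and Fut7, enzymes of selectin ligand synthesis, were high with CD103+ DC. Itga4, which encodes the alpha 4 chain of the alpha 4 beta 7 integrin, and Ccr9, a gut homing receptor, were low. The stretches of genome just upstream of these 4 genes are shown for orientation. Each is the RefSeq sequence (GRCm38.p6) of the 250 bases before the annotated start, read 5′ to 3′ on the strand of the gene. Capitals mark CACCC or its reverse complement GGGTG, the letters that Krüppel-like factors such as Klf3 recognise.
Gcnt1 promoter, chr19:17356668-17356917 (- strand): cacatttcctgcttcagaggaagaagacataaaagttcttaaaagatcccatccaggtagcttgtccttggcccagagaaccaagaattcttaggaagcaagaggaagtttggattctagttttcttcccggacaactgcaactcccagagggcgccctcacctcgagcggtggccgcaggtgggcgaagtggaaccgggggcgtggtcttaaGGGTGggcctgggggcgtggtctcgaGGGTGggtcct
Fut7 promoter, chr2:25422992-25423241 (+ strand): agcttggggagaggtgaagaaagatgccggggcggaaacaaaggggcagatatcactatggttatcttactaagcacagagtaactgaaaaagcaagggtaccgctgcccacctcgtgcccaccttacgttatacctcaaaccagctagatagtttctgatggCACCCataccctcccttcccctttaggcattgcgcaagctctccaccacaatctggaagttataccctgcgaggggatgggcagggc
Itga4 promoter, chr2:79255176-79255425 (+ strand): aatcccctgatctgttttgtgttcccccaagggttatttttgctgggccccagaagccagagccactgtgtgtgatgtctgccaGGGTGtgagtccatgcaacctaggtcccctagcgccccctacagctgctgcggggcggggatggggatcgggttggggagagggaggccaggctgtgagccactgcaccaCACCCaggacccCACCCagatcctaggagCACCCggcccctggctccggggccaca
Ccr9 promoter, chr9:123766961-123767210 (+ strand): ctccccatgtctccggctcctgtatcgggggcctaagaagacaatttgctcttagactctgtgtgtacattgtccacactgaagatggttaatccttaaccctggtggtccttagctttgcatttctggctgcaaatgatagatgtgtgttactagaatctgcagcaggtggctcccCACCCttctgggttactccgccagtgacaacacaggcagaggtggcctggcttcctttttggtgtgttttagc
The starts used lie 0 bases from the deposited 5′ end of the gene for Gcnt1 and Itga4 and 25 bases from it for Fut7. For Ccr9 the RefSeq start lies 88772 bases inside the deposited gene span. Of the 22 genes described next, 17 had such a window and 5 (Ikzf3, Wnt10a, Gm45837, Muc19 and Ighd) did not. CACCC on either strand was present in 11 of the 17, in 6 of 7 genes that were higher and in 5 of 10 that were lower with CD103+ DC, and in 52.0% of the 32851 RefSeq windows of that length. AGGTCA, the repeat unit of retinoid receptor sites, was present on either strand in 0 of the 17 and in 14% of all windows. These counts describe letters in a short window and say nothing of binding.

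A gene was counted against each group when it passed limma's test (Benjamini-Hochberg adjusted p under 0.05) both against CD8a DC and against CD11b DC, in the same direction. Of 18971 genes tested, 22 did so, which is 0.116% of them. Higher with CD103+ DC were 10 genes (0.0527%), namely Gcnt1, Fut7, Sema6d, Rxra, Wnt10a, Zfp318, Ighd, Hemgn, H2-Aa and Muc19. Lower were 12 genes (0.0633%), namely Itga4, Ccr9, Hic1, Ifngr1, Gfi1, Ikzf3, Plac8, Adam19, Ctla2a, Trpc4ap, Cldnd1 and the predicted gene Gm45837. In all 22 the CD103 DC libraries lay entirely above or entirely below the 5 others, as they did for 1078 of all genes tested (5.68%), 687 above (3.62%) and 391 below (2.06%). The 22 were chosen from these values for differing from both groups, so this lack of overlap is largely set by the choice. In the comparison of CD8a DC with CD11b DC, where limma called 374 genes (1.97%), 203 higher with CD8a+ DC (1.07%) and 171 lower (0.901%), 0 of the 22 passed (1 had an unadjusted p under 0.05, and edgeR and DESeq2 called 0). The pairwise comparisons share the CD103 DC libraries, so a gene's passing both is not a pair of independent results.

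A wider set was defined by setting the CD103 DC group against the mean of the other groups, with equal weight for each although they hold 3 and 2 libraries. This equal-weight contrast called 92 genes (0.485%), 43 higher (0.227%) and 49 lower (0.258%), and it contains all 22. Of the 92, 48 passed only against CD8a DC, 14 only against CD11b DC and 8 passed neither pairwise comparison. All 92 had the same sign in both, and 87 had CD103 DC libraries that did not overlap the others. Choosing genes for a difference from the mean of both groups favours each of these outcomes. On their own the pairwise comparisons called 273 genes against CD8a DC (1.44%), 169 higher (0.891%) and 104 lower (0.548%), and 63 against CD11b DC (0.332%), 25 higher (0.132%) and 38 lower (0.2%). Unless stated otherwise, fold changes below are for the equal-weight contrast, on the log2(normalized count + 1) scale, and levels are reads scaled to a library total of 1000000 (CPM) in libraries 1, 2 and 3 of each group (2 and 3 for CD11b DC).

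The calls depended on which libraries entered the fit. By limma the count against each group was 3, 1 and 1 without libraries 1, 2 and 3 of the CD103 DC group, 0 without either CD11b DC library (331 and 293 genes had an unadjusted p under 0.05 in both comparisons, and edgeR called 3 and 1), and 17, 36 and 79 without libraries 1, 2 and 3 of the CD8a DC group. The equal-weight count was 25, 16 and 14 without the CD103 DC libraries, 0 and 1 without the CD11b DC libraries (1508 and 1416 genes had an unadjusted p under 0.05, and edgeR called 44 and 34) and 57, 148 and 279 without the CD8a DC libraries. Itga4 was called against each group in 6 of those 8 fits and each of the other 21 genes in 0 to 4. The sign of the change stayed the same for all 22 in both pairwise comparisons, and for all 92 in the equal-weight contrast, in each of the 8. Where the CD103 DC libraries do not overlap the others, leaving 1 library out could hardly turn the sign, so this is no separate support. With all libraries kept, Fut7 and Wnt10a were not called against each group without a filter or with the replicate block. Cldnd1 was not called so in those settings, with library-size scaling, with a pseudocount of 5 or by edgeR. Muc19 was not called so by edgeR, by DESeq2, with the replicate block or with a filter at a mean normalized count of 10. That filter also cost Muc19 its equal-weight call. Scaling by library size turned the 43 higher and 49 lower into 59 higher and 39 lower, and the split against CD8a DC from 169 and 104 into 210 and 74.

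**Figure D1:**
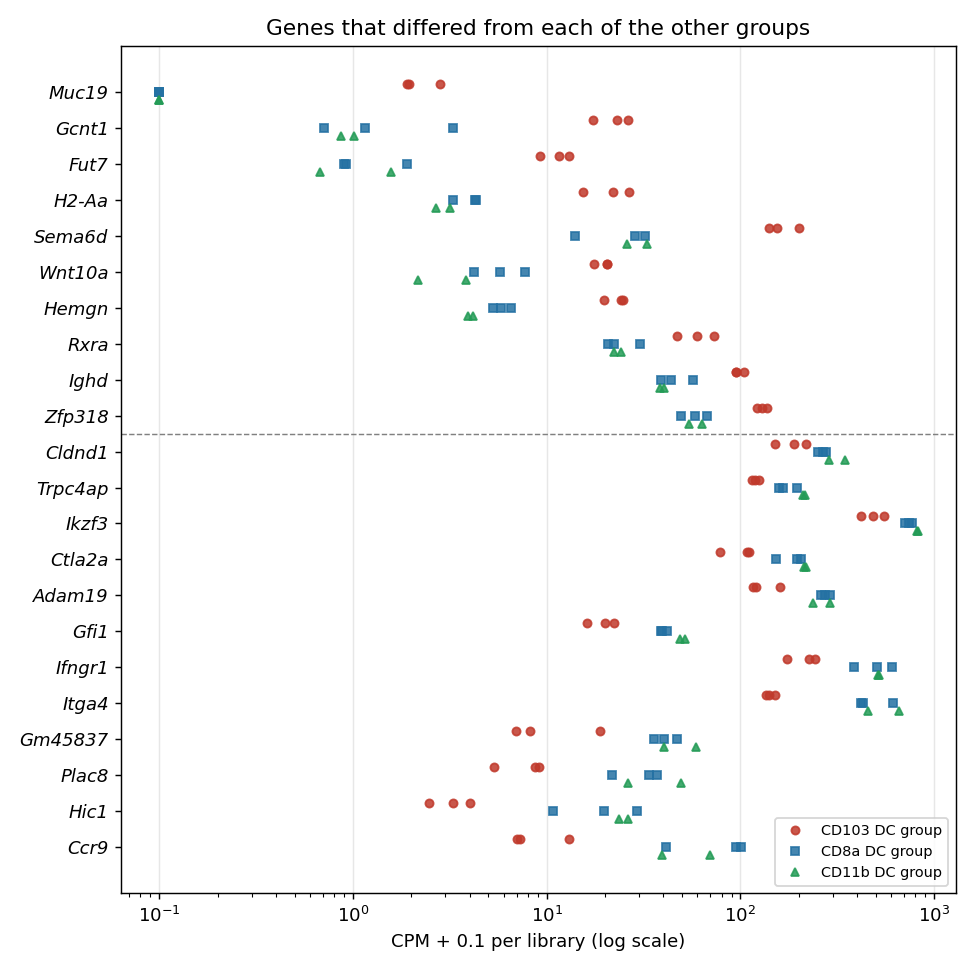
Level of the 22 genes that differed from each of the other groups, as CPM + 0.1 per library on a log axis. Each point is 1 library, coloured by DC partner. Genes above the dashed line were higher and those below it lower with CD103+ DC, and for none do the CD103 DC points (red circles) overlap the CD8a DC (blue squares) or CD11b DC (green triangles) points. Muc19 sits at the 0.1 added for plotting in the 5 other libraries because it had 0 reads there.

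Recovered depth was 16293042 to 21973391 reads per library. The transcripts measured were those of CD8+ T cells, as labelled: T cell identity genes summed to 7142 to 7311 CPM with CD103+ DC, 6115 to 6722 CPM with CD8a+ DC and 7149 to 7798 CPM with CD11b+ DC, with Cd8a at 1373 to 2142 CPM and Cd3e at 970.1 to 1313 CPM over all libraries. Transcripts of the mitochondrial genome made up at least 6.69% to 7.72% of a CD103 DC library, 9.12% to 11.8% of a CD8a DC library and 7.02% to 7.20% of a CD11b DC library, so they separate the CD8a DC group from both others. These shares are lower bounds, since mt-Co2, mt-Co3, mt-Atp6, mt-Atp8 and mt-Nd4l are listed at 0 in every library. The 8 protein-coding genes among them that had reads summed to 50100 to 62260, 58220 to 82690 and 52620 to 57870 CPM in the same order and overlapped. Their part in any difference from the CD8a DC group was not tested.

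T cells primed by CD103+ DC had the transcripts of 2 selectin ligand enzymes at levels that no library of the other groups reached. Gcnt1 (ENSMUSG00000038843, chromosome 19, 17326141 to 17356667), which adds the branch on which the selectin-binding sugar is built, was at 26.2, 22.9 and 17.2 CPM with CD103+ DC, 0.613, 3.19 and 1.06 CPM with CD8a+ DC and 0.906 and 0.765 CPM with CD11b+ DC. The lowest CD103 DC library was thus well above the highest of the others, and the log2 fold change was 4.29 (adjusted p = 0.00289, SE 0.54). Against CD8a DC alone it was 3.97, and 4.63 without library 2 of that group. Fut7 (ENSMUSG00000036587, chromosome 2, 25423267 to 25426374), the fucosyltransferase that completes the sialyl Lewis X structure, was at 9.13, 11.5 and 13 CPM with CD103+ DC, 0.796, 0.818 and 1.81 with CD8a+ DC and 0.576 and 1.47 with CD11b+ DC. Its log2 fold change was 3.39 (adjusted p = 0.0107, SE 0.54), and the groups did not overlap. Against CD11b DC it was 3.50, and 2.87 and 4.14 without libraries 2 and 3 of that group. In bulk RNA a higher share of cells with a transcript and more transcript in each cell cannot be told apart, here and in all that follows.

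The rest of the selectin ligand list did not move together. Of its 18 members tested, 3 rose and 1 fell in the equal-weight contrast, and its median log2 fold change was -0.11, against 0.01 over all genes tested. The third that rose was B4galt5, a galactosyltransferase, at 177, 191 and 189.9 CPM with CD103+ DC, 147, 114 and 147 with CD8a+ DC and 92.0 and 107 with CD11b+ DC. Its increase passed against CD11b DC, at 0.90 (adjusted p = 0.0146), while the value against CD8a DC was 0.41 (adjusted p = 0.163). Selplg, which encodes the PSGL-1 protein that carries the sugar, fell instead: it was at 339, 326 and 325 CPM with CD103+ DC, 511, 499.8 and 391 with CD8a+ DC and 439 and 499 with CD11b+ DC, a log2 fold change of -0.53 (adjusted p = 0.0464, SE 0.11). The Selplg call was lost with library-size scaling, a pseudocount of 5, no filter and the replicate block, and kept in 6 of 10 other settings with all libraries.

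Among 11 chemokine receptors of skin and inflamed tissue, Ccr4 rose and Cxcr4 fell, and the list's median log2 fold change was 0.13. Ccr4, a receptor of skin homing T cells, was at 41.0, 38.2 and 36.2 CPM with CD103+ DC, 6.87, 3.64 and 12.4 with CD8a+ DC and 6.21 and 12.5 with CD11b+ DC. The groups did not overlap and the log2 fold change was 2.27 (adjusted p = 0.0105, SE 0.35), but only the comparison with CD8a DC passed by itself (2.44, adjusted p = 0.00772, and 2.11, adjusted p = 0.064 against CD11b DC). Cxcr4, the receptor for CXCL12, was at 21.9, 23.9 and 22.8 CPM with CD103+ DC, 89.2, 47.1 and 75.4 with CD8a+ DC and 47.1 and 30.1 with CD11b+ DC, with a log2 fold change of -1.18 (adjusted p = 0.0239). Ccr8, another receptor of skin T cells, formed 3 steps, at 9.08, 7.99 and 7.0 CPM with CD103+ DC, 3.01, 3.32 and 4.94 with CD8a+ DC and 0.858 and 0.176 with CD11b+ DC. It passed against CD11b DC (4.13, adjusted p = 0.0146) but not in the equal-weight contrast (2.59, adjusted p = 0.0506).

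Gut homing genes moved the other way, with 3 of 5 lower. Itga4 (ENSMUSG00000027009, chromosome 2, 79255426 to 79333123), the alpha 4 integrin chain, was at 151, 135 and 141 CPM with CD103+ DC, 614, 431 and 421 CPM with CD8a+ DC and 659 and 457 CPM with CD11b+ DC. The CD103 DC libraries lay close together and far below all others, and Itga4 had the smallest adjusted p of the 92 genes, with a log2 fold change of -1.89 (adjusted p = 4.82e-05, SE 0.14). Ccr9 (ENSMUSG00000029530, chromosome 9, 123678439 to 123784330), the receptor for the gut chemokine CCL25, was at 7.15, 6.91 and 13 CPM with CD103+ DC, 95.4, 101 and 41.1 with CD8a+ DC and 69.5 and 39.1 with CD11b+ DC, a log2 fold change of -2.87 (adjusted p = 0.0019, SE 0.32). Hic1 (ENSMUSG00000043099, chromosome 11, 75164565 to 75169519), a transcriptional repressor that retinoic acid induces in mouse intestinal T cells, was at 3.19, 2.36 and 3.92 CPM with CD103+ DC, 10.6, 29.2 and 19.7 with CD8a+ DC and 26.2 and 23.4 with CD11b+ DC, a log2 fold change of -2.79 (adjusted p = 0.00289, SE 0.35). For all 3 genes no library of another group came down to the CD103 DC level.

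The remaining members of the 5-gene gut homing list did not pass the equal-weight contrast. Itgb7, the beta 7 chain that pairs with alpha 4, was at 150.5, 154 and 166 CPM with CD103+ DC, 215, 203 and 164 with CD8a+ DC and 254 and 258 with CD11b+ DC. It fell against CD11b DC (-0.71, adjusted p = 0.0488), while the equal-weight value was -0.54 (adjusted p = 0.054) and 1 CD8a DC library lay within the CD103 DC range. Gpr15, a receptor of colon homing T cells, fell against CD8a DC only (-1.02, adjusted p = 0.0381, and -0.15, adjusted p = 0.907 against CD11b DC). The median over the 5 genes was -1.89. Itga4 overlaps Cerkl and Ccr9 overlaps Lztfl1 on the opposite strand, and the strand setting of the counting is not given in the sources used here. Cerkl was at a mean of 4.14 CPM with CD103+ DC and 7.52 CPM in the other libraries, and Lztfl1 at 42.4 and 69.0 CPM.

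**Figure D2:**
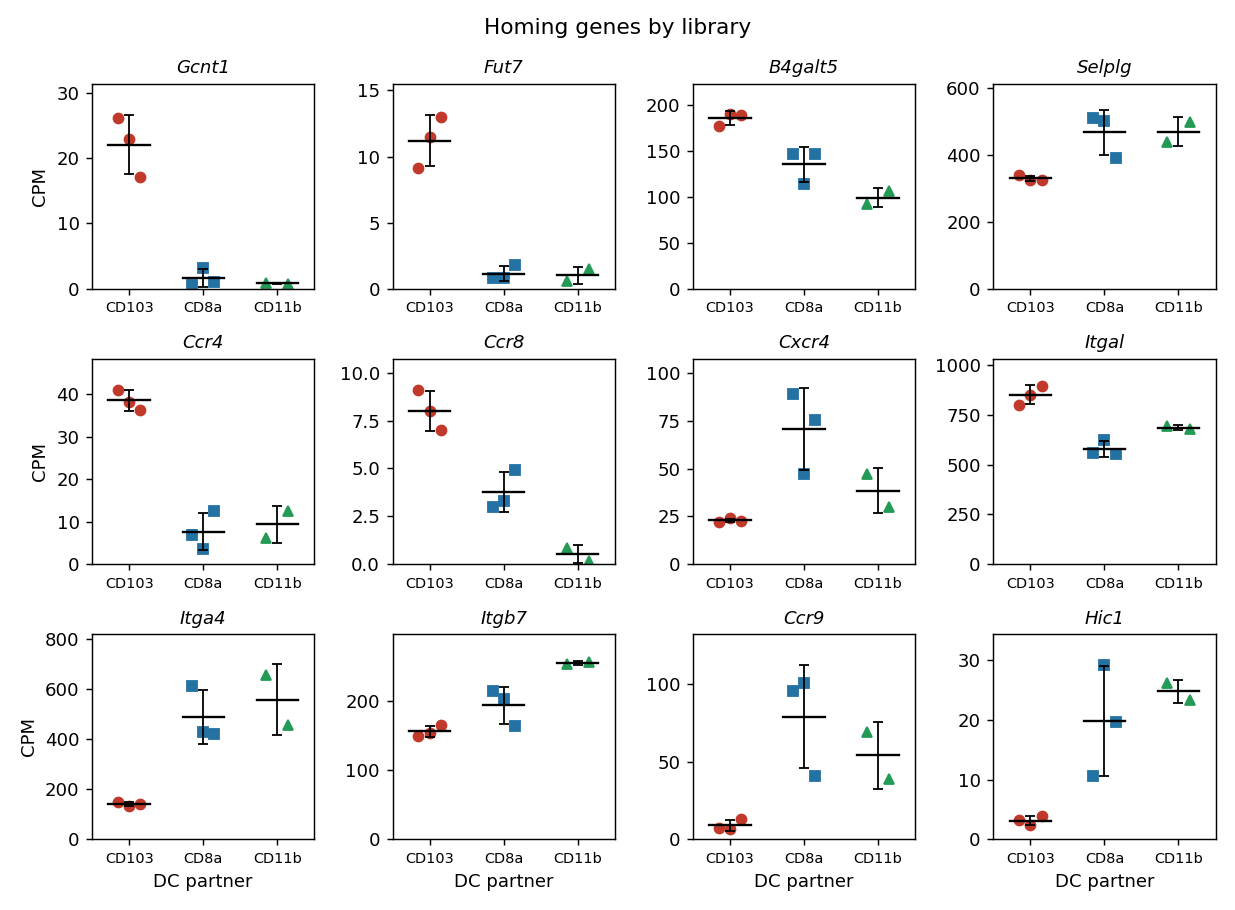
Homing genes by library, in CPM on linear axes that start at 0, 1 panel per gene. Points are libraries, long bars are group means and error bars are the SD (n = 3, 3 and 2). Gcnt1, Fut7 and Ccr4 are high and Itga4, Ccr9 and Hic1 low in all 3 CD103 DC libraries, while Ccr8 forms steps and Itgb7 has overlapping CD103 DC and CD8a DC libraries.

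Adhesion and lymph node exit genes were mostly below the threshold, with 1 higher and 2 lower of 21. Cd69, an early activation protein that holds T cells in tissue by binding the sphingosine phosphate receptor S1PR1, was at 31.6, 37.6 and 41.9 CPM with CD103+ DC, 13.6, 12.9 and 15.1 with CD8a+ DC and 14.8 and 21.9 with CD11b+ DC, a log2 fold change of 1.19 (adjusted p = 0.023). S1pr4, a related receptor, fell by 0.69 on the log2 scale (adjusted p = 0.0234), with 83.5 to 106 against 124 to 165 CPM. Klf3, a Krüppel-like repressor, fell by 0.79 (adjusted p = 0.0396), although 1 CD8a DC library, at 70.3 CPM, lay within the CD103 DC range of 58.1 to 75.3 CPM. Klf2 and S1pr1, which promote exit from lymph nodes, had log2 fold changes of -0.98 (adjusted p = 0.054) and -0.61 (adjusted p = 0.0583). Itgal, the LFA-1 alpha chain, passed against CD8a DC (0.50, adjusted p = 0.0207) but not in the equal-weight contrast (0.40, adjusted p = 0.0556).

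Rxra and Rara, genes of 2 receptors that form retinoic acid receptor pairs, rose in the equal-weight contrast. Rxra (ENSMUSG00000015846, chromosome 2, 27676440 to 27762957), the retinoid X receptor that pairs with many nuclear receptors, was at 47.0, 60.0 and 72.7 CPM with CD103+ DC, 20.6, 30.1 and 22 with CD8a+ DC and 22.2 and 24.1 with CD11b+ DC, a log2 fold change of 1.29 (adjusted p = 0.0101, SE 0.20). Rara, the retinoic acid receptor alpha, was at 89.1, 93.1 and 102 CPM with CD103+ DC, 48.2, 47.8 and 36.8 with CD8a+ DC and 58.6 and 66.3 with CD11b+ DC. Its log2 fold change was 0.82 (adjusted p = 0.0234), and only the comparison with CD8a DC passed by itself. They were the only 2 of 19 members of the nuclear receptor list to pass, and the list's median was -0.03. The related receptor genes Rarb, Rarg and Rxrb did not pass. These receptor transcripts were thus higher in the same libraries in which Itga4, Ccr9 and Hic1 were lower.

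Sema6d (ENSMUSG00000027200, chromosome 2, 124089969 to 124667770), a transmembrane semaphorin, was at 155, 139.9 and 202 CPM with CD103+ DC, 28.5, 32.1 and 13.9 with CD8a+ DC and 32.7 and 26.0 with CD11b+ DC, a 6.11-fold difference with a log2 value of 2.61 (adjusted p = 0.000495, SE 0.25). Sema4a, a semaphorin known from T cell priming, was at 116, 143 and 139.9 CPM with CD103+ DC, 65.9, 60.6 and 53.5 with CD8a+ DC and 78.6 and 80.9 with CD11b+ DC, a log2 fold change of 0.90 (adjusted p = 0.00572). Of 13 semaphorin, plexin and neuropilin genes these 2 rose and 0 fell, with a median of 0.71. Wnt10a, a secreted Wnt ligand, was at 17.5, 20.3 and 20.3 CPM with CD103+ DC, 4.11, 5.64 and 7.59 with CD8a+ DC and 3.73 and 2.06 with CD11b+ DC, a log2 fold change of 2.25 (adjusted p = 0.00885, SE 0.34). The groups did not overlap for any of the 3 genes.

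Receptors for cytokines and lipids changed in both directions. Ifngr1 (ENSMUSG00000020009, chromosome 10, 19591949 to 19610229), the ligand-binding chain of the interferon gamma receptor, was at 243, 226 and 175 CPM with CD103+ DC, 603, 507 and 384 with CD8a+ DC and 511 and 517 with CD11b+ DC, a log2 fold change of -1.27 (adjusted p = 0.0019, SE 0.14). It fell against each group, by 1.26 against CD8a DC and by 1.28 against CD11b DC on the log2 scale. Il10ra, the interleukin 10 receptor alpha chain, was at 64.3, 67.0 and 55.4 CPM with CD103+ DC, 147, 124 and 115 with CD8a+ DC and 111 and 102 with CD11b+ DC, a log2 fold change of -0.94 (adjusted p = 0.00406). By contrast Il18rap, the accessory chain of the interleukin 18 receptor, rose, from 13.7 to 30.3 CPM in the others to 56.3, 62.0 and 56.3 CPM with CD103+ DC (log2 fold change 1.5, adjusted p = 0.0112). Il10ra and Il18rap were the 2 of 27 cytokine receptor and STAT5 target genes to pass the equal-weight contrast, while 10 rose and 1 fell against CD8a DC and 0 rose and 1 fell against CD11b DC. Ptger4, a prostaglandin E receptor, and Gpr55, a receptor for lysophospholipids, rose as the 2 of 18 lipid, purine and orphan receptors to pass, with 24.2 to 29.8 against 10.4 to 14.1 CPM (log2 fold change 1.15, adjusted p = 0.0386) and 126 to 183 against 57.0 to 90.6 CPM (log2 fold change 0.94, adjusted p = 0.0107).

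The interferon response lists had median changes of opposite sign in the pairwise comparisons, and their link to the fall of Ifngr1 was not tested. Of 27 interferon gamma response genes 0 passed the equal-weight contrast by limma (3 had an unadjusted p under 0.05, edgeR called 0 and DESeq2 1), and their median log2 fold change was 0.17. Against CD8a DC 14 rose and 0 fell (median 0.76), and against CD11b DC 0 passed (median -0.30; 8 had an unadjusted p under 0.05, edgeR called 0 and DESeq2 3). Nlrc5, the transactivator of MHC class I genes, shows this split, with log2 fold changes of 0.78 (adjusted p = 0.00559) against CD8a DC and -0.16 (adjusted p = 0.789) against CD11b DC. Of 39 type I interferon response genes 4 rose against CD8a DC, and limma called 0 against CD11b DC and 0 in the equal-weight contrast (5 had an unadjusted p under 0.05 in each, edgeR called 1 and 0, and DESeq2 1 and 1). Cell cycle genes were split as well: of 41, 5 fell against CD8a DC, 3 rose against CD11b DC and 0 passed the equal-weight contrast by limma (7 had an unadjusted p under 0.05, edgeR called 0 and DESeq2 1). Mki67, a marker of dividing cells, passed both pairwise comparisons in opposite directions, at 3306, 3226 and 3177 CPM with CD103+ DC, 3932, 3610.1 and 4368 with CD8a+ DC and 2361 and 2261 with CD11b+ DC.

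**Figure D3:**
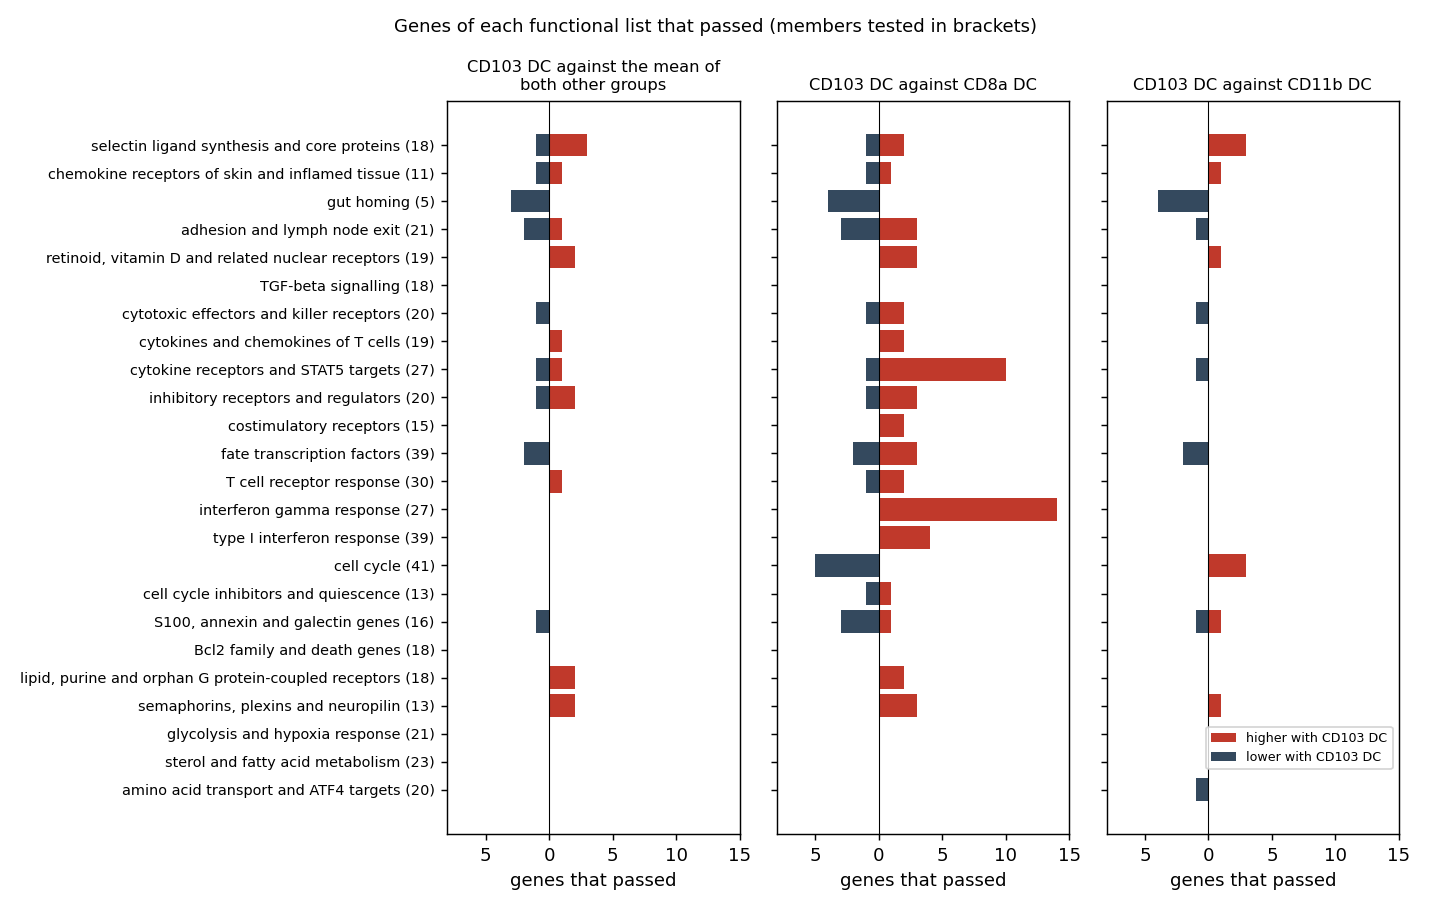
Number of genes in each of the 24 functional lists that passed limma's test in the equal-weight contrast (left), against CD8a DC (middle) and against CD11b DC (right). Bars to the right of 0 (red) count genes that were higher and bars to the left (dark blue) genes that were lower with CD103+ DC, with the members tested in brackets. The interferon gamma list has 14 genes against CD8a DC and 0 in the other panels, and the gut homing list has 3 or 4 lower genes in every panel.

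Beside Hic1, the transcriptional regulators Gfi1 and Ikzf3 fell against each group. Gfi1, a zinc finger repressor of blood cell fate, was at 22, 19.9 and 16.0 CPM with CD103+ DC, 39.2, 38.8 and 41.6 with CD8a+ DC and 51.5 and 48.8 with CD11b+ DC, a log2 fold change of -1.25 (adjusted p = 0.00406, SE 0.17). Ikzf3, which encodes the Ikaros family member Aiolos, was at 550.2, 418 and 485 CPM with CD103+ DC, 743, 769 and 709 with CD8a+ DC and 822 and 820.1 with CD11b+ DC, a log2 fold change of -0.73 (adjusted p = 0.00448, SE 0.10). Ikzf3 and Klf3 were the only 2 of 39 fate transcription factors to pass, both lower, and the list's median was 0.06. Tox, a factor of exhausted T cells that stands in the list of inhibitory regulators, rose, with 121 to 157 against 54.3 to 103 CPM and a log2 fold change of 0.83 (adjusted p = 0.0464). The Tox call was lost with pseudocounts of 0.5 and 5, without a filter and with the replicate block. Factors that define CD8+ effector and memory cells gave no call: Tcf7 had a log2 fold change of -0.13 (adjusted p = 0.741) and Tbx21 of -0.71 (adjusted p = 0.406).

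Zfp318 and Ighd rose together. Zfp318, a zinc finger protein that B cells need to make IgD, was at 122, 129 and 137 CPM with CD103+ DC, 49.3, 58.3 and 67.2 with CD8a+ DC and 63.4 and 54.4 with CD11b+ DC, a log2 fold change of 1.12 (adjusted p = 0.00289, SE 0.14). Ighd, the constant region of the IgD heavy chain, was at 94.8, 104 and 95.1 CPM with CD103+ DC, 43.9, 56.8 and 38.7 with CD8a+ DC and 40.5 and 38.2 with CD11b+ DC, a log2 fold change of 1.17 (adjusted p = 0.00349, SE 0.15). Ighd falls outside the rule that chose the named genes, which leaves out immunoglobulin genes, and is given because it was called against each group. B cell markers summed to 1030 to 1159 CPM with CD103+ DC, 987 to 1288 CPM with CD8a+ DC and 1184 to 1228 CPM with CD11b+ DC. Most of that sum was Ighm, the IgM constant region, at 928 to 1051, 932 to 1208 and 1125 to 1170 CPM in the same order. Ighd was the 1 of 9 members tested that passed, and Ms4a1, Pax5, Blnk and Fcmr were under 1 CPM in every library. The part of B cell transcripts in the Ighd and Zfp318 values was not tested.

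H2-Aa, the alpha chain of an MHC class II molecule, was at 21.8, 15.4 and 26.6 CPM with CD103+ DC, 3.19, 4.14 and 4.20 with CD8a+ DC and 2.58 and 3.05 with CD11b+ DC, a log2 fold change of 2.61 (adjusted p = 0.00289, SE 0.34). Cd83, a surface protein of mature DC that activated lymphocytes also make, was at 76.1, 72.8 and 80.6 CPM with CD103+ DC, 24.4, 35.8 and 25.1 with CD8a+ DC and 45.0 and 26.2 with CD11b+ DC, a log2 fold change of 1.27 (adjusted p = 0.0113). They were the 2 of 24 DC markers tested that passed. Its beta chain partner H2-Ab1 was at 1.99, 3.07 and 2.33 CPM with CD103+ DC, 2.46, 4.05 and 2.60 CPM with CD8a+ DC and 8.98 and 2.35 CPM with CD11b+ DC, so the groups overlapped. The DC markers summed to 816 to 862 CPM with CD103+ DC, 411 to 739 CPM with CD8a+ DC and 780 to 970 CPM with CD11b+ DC. The largest part in every library was Ccr7, which also stands in the adhesion and lymph node exit list. It was at 277 to 317, 226 to 393 and 322 to 338.5 CPM in the same order. In 6 of the 24 the CD103 DC libraries lay above the 5 others and in 0 below them, against 3.62% and 2.06% of all genes, and the list's median log2 fold change was 0.62. Beside H2-Aa and Cd83 the 6 were Cd74, the MHC class II invariant chain (47.2 to 57.5 against 8.29 to 35.2 CPM), Flt3, a cytokine receptor of DC (24.6 to 28.7 against 4.94 to 16.5 CPM), Irf8, a transcription factor (46.0 to 52.8 against 20.1 to 38.7 CPM), and Cd80, a costimulatory ligand (18.9 to 20.1 against 6.45 to 18.3 CPM). Cd74 and Flt3 passed against CD8a DC (1.81, adjusted p = 0.0458, and 1.78, adjusted p = 0.0272). So did Ccl22, a chemokine (1.40, adjusted p = 0.0265), but its change against CD11b DC was -0.80 (adjusted p = 0.408). Its CD103 DC libraries had 144, 144 and 169 CPM, and its CD11b DC libraries 315 and 221 CPM. Sirpa fell against CD11b DC (-5.14, adjusted p = 0.0476), from 1.86 and 3.7 CPM there to 0, 0.104 and 0 CPM. Ccl17 was also lower in that comparison, without passing (-4.81, adjusted p = 0.156). Of the other members, Cd209a and Clec10a were at 0 and Ciita and Wdfy4 under 1 CPM in every library. Itgax was at 0 in all 3 CD103 DC libraries. The part of DC transcripts in the H2-Aa and Cd83 values was not tested.

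The B cell marker sum of the CD103 DC libraries overlapped that of the CD8a DC group and lay below that of the CD11b DC group. Their DC marker sum lay above that of the CD8a DC group and overlapped that of the CD11b DC group. For 2 further marker lists the summed level set the CD103 DC libraries apart from both groups. Macrophage and monocyte markers summed to 150.2 to 158.5 CPM with CD103+ DC, 68.25 to 121 CPM with CD8a+ DC and 129 to 141 CPM with CD11b+ DC. Most of that sum was Ctss, the protease cathepsin S, at 134 to 139, 62.95 to 107 and 121 to 127 CPM in the same order. In this list Adgre1, Cd14, Fcgr1, C1qb and C1qc were at 0 in every library and 0 of 6 members tested passed in the equal-weight contrast (1 had an unadjusted p under 0.05, and edgeR and DESeq2 called 0). The sum of CD4+ and regulatory T cell markers was 161 to 167, 65.45 to 149.6 and 109 to 122 CPM in that order, most of it Ikzf4, an Ikaros family factor, whose libraries overlapped between groups. For Foxp3, the factor of regulatory T cells (4.66 to 7.0 against 0.371 to 3.31 CPM; log2 fold change 2.09), Zbtb7b, the factor of CD4+ lineage choice (10.4 to 14.9 against 2.23 to 7.45 CPM; 1.66), and Cd40lg, the CD40 ligand (6.40 to 9.83 against 0.226 to 3.61 CPM; 2.06), the CD103 DC libraries lay above the 5 others. The list's median log2 fold change was 1.66, Zbtb7b passed against CD8a DC (2.04, adjusted p = 0.0282), and limma called 0 of 5 in the equal-weight contrast (3 had an unadjusted p under 0.05, edgeR called 0 and DESeq2 1). Their part in the differences described was not tested. Natural killer cell markers summed to 3.43 to 9.11 CPM, neutrophil markers to 0 to 0.706 CPM, red blood cell markers to 1.51 to 4.02 CPM, stromal and epithelial markers to 155 to 238 CPM and heat shock and immediate early genes to 633 to 964 CPM over all libraries, and in the equal-weight contrast limma, edgeR and DESeq2 called 0 of their 3, 1, 1, 5 and 12 members tested (1, 0, 0, 0 and 1 had an unadjusted p under 0.05).

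Other genes called against each group belong to no functional list used here. Hemgn, a nuclear protein of blood-forming cells, was at 19.6, 24.0 and 24.6 CPM with CD103+ DC, 5.16, 6.41 and 5.68 with CD8a+ DC and 4.06 and 3.82 with CD11b+ DC, a log2 fold change of 2.21 (adjusted p = 0.00289, SE 0.28). Muc19, a gel-forming mucin, was at 2.72, 1.84 and 1.79 CPM with CD103+ DC and had 0 reads in each of the 5 other libraries. With 3 reads per group as the floor, it was at least 40.1-fold higher than with CD8a+ DC and at least 26.7-fold higher than with CD11b+ DC. Its 124 reads in the CD103 DC libraries together gave an adjusted p of 0.00654 in limma's equal-weight contrast, while by edgeR the adjusted p was 0.028 in that contrast and 0.148 against CD11b DC, so that edgeR did not call it against each group.

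Further genes that fell against each group also lay outside the lists. Plac8, a small cysteine-rich protein of effector and memory T cells, was at 9.08, 8.60 and 5.21 CPM with CD103+ DC, 33.8, 21.6 and 36.8 with CD8a+ DC and 26.3 and 49.1 with CD11b+ DC, a log2 fold change of -2.17 (adjusted p = 0.00289, SE 0.28). Adam19, a membrane metalloproteinase, had 116 to 161 CPM with CD103+ DC and 236 to 289 CPM in the 5 other libraries, a log2 fold change of -1.07 (adjusted p = 0.00262, SE 0.13). Ctla2a, a cathepsin inhibitor of mouse T cells, had 78.6 to 110.4 CPM with CD103+ DC and 153 to 219 CPM in the 5 other libraries, a log2 fold change of -1.05 (adjusted p = 0.00289, SE 0.13). Smaller falls were seen for Trpc4ap, a TRPC4-binding protein (115 to 124 against 159 to 215 CPM; log2 fold change -0.72, adjusted p = 0.00885), and Cldnd1, a claudin domain protein (150.4 to 217 against 252 to 346 CPM; log2 fold change -0.69, adjusted p = 0.0234). The predicted gene Gm45837, which overlaps Arap1 on the same strand so that reads may be split between them, had 6.81 to 18.8 against 35.9 to 59.0 CPM.

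**Figure D4:**
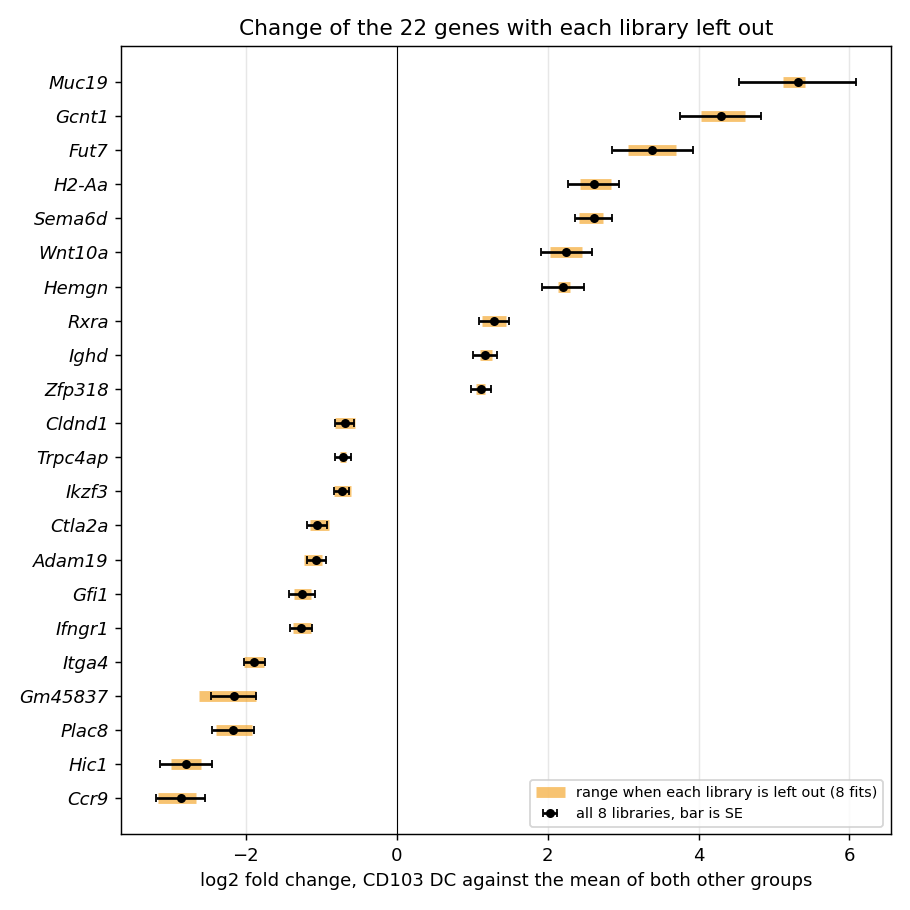
Log2 fold change of the 22 genes in the equal-weight contrast. Black points and bars give the estimate from all 8 libraries and its SE, and orange bands the range of the estimate when each library is left out in turn. No band reaches 0, which the lack of overlap between the CD103 DC libraries and the others all but sets.

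Among genes past the equal-weight contrast with the next largest changes against both groups, several encode signalling proteins. Higher were Npr1, a natriuretic peptide receptor, with 5.58 to 7.35 against 0.0452 to 0.823 CPM (log2 fold change 3.91, adjusted p = 0.0234), Pik3r3, a regulatory subunit of PI3 kinase, with 63.5 to 82.6 against 15.2 to 36.5 CPM (1.49, adjusted p = 0.0239), and Lrrk2, a leucine-rich repeat kinase, with 9.71 to 15.9 against 1.27 to 2.73 CPM (2.44, adjusted p = 0.0239). Lmna, which encodes the nuclear lamins A and C, was at 28.8, 35.1 and 40.0 CPM with CD103+ DC, 12.5, 11.6 and 10.9 with CD8a+ DC and 8.07 and 2.06 with CD11b+ DC, and passed against CD11b DC alone (3.05, adjusted p = 0.012; 4.02 and 2.07 without CD11b DC libraries 2 and 3). Cd22, a sialic acid-binding inhibitory receptor best known from B cells, was at 1.51, 6.14 and 8.54 CPM with CD103+ DC, 0, 0 and 0.104 with CD8a+ DC and 0.0480 and 0.353 with CD11b+ DC. The CD103 DC libraries held 321 Cd22 reads and the CD8a DC libraries 2, a ratio of 156 (95% counting interval 42.8 to 1292). Its log2 fold change of 5.12 (adjusted p = 0.0235) became 5.85 without CD103 DC library 1. Tmem154, a membrane protein, had 81.7 to 112 against 32.9 to 62.2 CPM (1.14, adjusted p = 0.0272), and Rnft2, a RING finger protein, had 5.54 to 10.6 against 0.412 to 1.66 CPM (2.81, adjusted p = 0.0479). Acsl3, an acyl-CoA ligase of lipid droplet formation, had 28.3 to 33.1 against 8.05 to 21.3 CPM (1.45, adjusted p = 0.0242), and it overlaps Utp14b on the same strand, which also passed, so their reads may not be separable.

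The corresponding falls included surface enzymes and kinase pathway genes. Bst1 and Cd38, paralogous enzymes that consume NAD at the cell surface, both fell: Bst1 had 0.565 to 2.92 against 5.46 to 21.4 CPM (log2 fold change -2.84, adjusted p = 0.0347, and -2.16 without CD103 DC library 2) and Cd38 13.6 to 16.6 against 24.6 to 40.5 CPM (-1.03, adjusted p = 0.0386). Rasa3, a GTPase activating protein, had 125 to 161 against 210.2 to 336 CPM (-0.97, adjusted p = 0.0101), and Txk, a Tec family kinase of T cell receptor signalling, 52.8 to 72.3 against 83.0 to 117 CPM (-0.74, adjusted p = 0.0464). Slc43a1, an amino acid transporter, had 44.7 to 70.1 against 111 to 199 CPM (-1.30, adjusted p = 0.00885), and Cd55, which protects cells from complement, 59.3 to 70.8 against 101 to 135 CPM (-0.90, adjusted p = 0.00576). Enpp4, a surface phosphodiesterase family member, Rtn4rl1, a Nogo receptor homologue, Btbd11 and Chst11, a chondroitin sulfotransferase, fell by 1.51, 1.52, 0.91 and 1.04 on the log2 scale. For all of these the CD103 DC libraries lay below the 5 others, which the rule that chose them required.

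**Figure D5:**
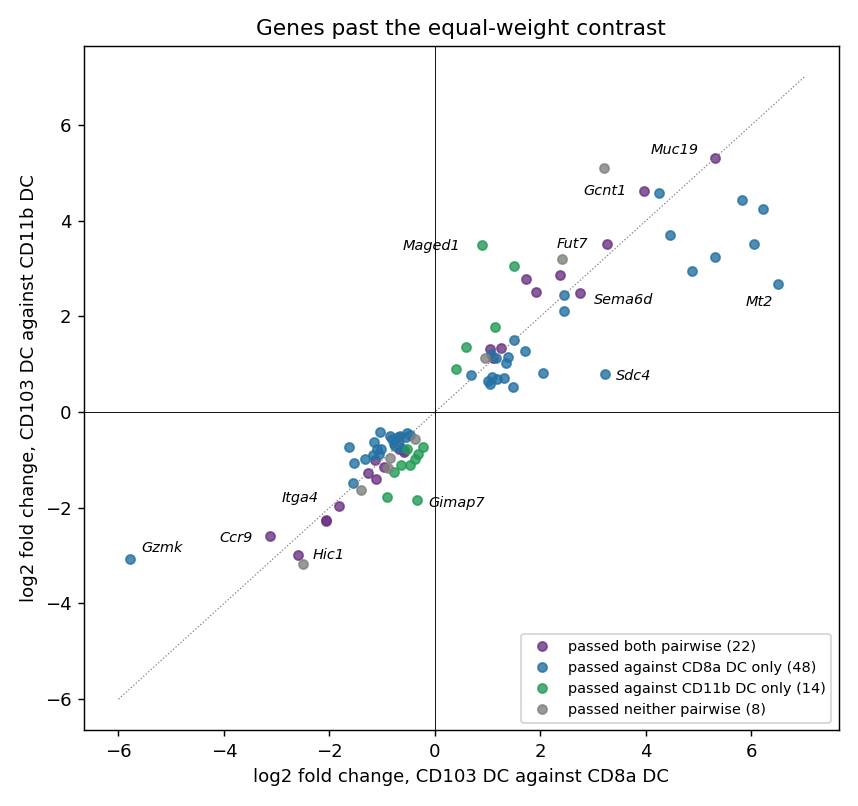
Log2 fold changes of the 92 genes past the equal-weight contrast, against CD8a DC (horizontal) and against CD11b DC (vertical), with the line of equal change dotted. Colours give which pairwise comparison passed. Both axes use the same CD103 DC libraries, and every gene was chosen for a difference from the mean of both groups. That choice favours a position in the upper right or lower left. What varies is the distance from the line, as for Sdc4, Maged1 and Gimap7.

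Of the 92 genes, 7 also passed in the comparison of CD8a DC with CD11b DC. These 7, named after their values were seen, were Gimap4, Gimap6, Gimap7, Tnfsf8, Adgrg5, Sdc4 and Maged1. The Gimap genes encode GTPases of lymphocyte survival, and Gimap7 was at 38.7, 48.6 and 44.3 CPM with CD103+ DC, 36.6, 60.7 and 67.7 with CD8a+ DC and 130.3 and 184 with CD11b+ DC, so that its low level was shared by the CD8a DC group. Tnfsf8, the CD30 ligand, was at 121, 125 and 113 CPM with CD103+ DC, 36.3, 53.3 and 36.4 with CD8a+ DC and 79.4 and 86.7 with CD11b+ DC, a step in which the CD11b DC group lay between. It was the 1 of 19 cytokine and chemokine genes to pass. Sdc4, a heparan sulfate proteoglycan, had the same order, and Maged1 the reverse, with the CD8a DC group between.

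Of 20 cytotoxic effector genes of CD8+ T cells 1 passed the equal-weight contrast, which called 0.485% of all genes. This was Gzmk, which encodes a granzyme and was at 0.259, 0.153 and 0 CPM with CD103+ DC, 19.6, 4.73 and 5.31 with CD8a+ DC and 1.10 and 1.35 with CD11b+ DC (log2 fold change -4.43, adjusted p = 0.0238, and -3.68 without CD103 DC library 3), and the comparison with CD11b DC did not pass by itself. Gzmb, the main granule protease, was at 9.29, 18.2 and 11.3 CPM with CD103+ DC, 11.8, 14.3 and 37.7 with CD8a+ DC and 76.2 and 55.9 with CD11b+ DC, which passed against CD11b DC (-2.40, adjusted p = 0.0253) but not in the equal-weight contrast (-1.52, adjusted p = 0.0776). Ifng, the effector cytokine interferon gamma, was at 2.82, 2.82 and 2.63 CPM with CD103+ DC, 0.120, 0 and 1.81 with CD8a+ DC and 0 in both CD11b DC libraries. Its 162 reads in the CD103 DC group made it at least 34.8-fold higher than with CD11b+ DC with the same floor, yet its adjusted p in the equal-weight contrast was 0.0805. Prf1, the pore-forming protein perforin, gave 0.02 (adjusted p = 0.992, SE 0.43) on the log2 scale, with a 95% interval of -0.89 to 0.94.

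Ctla4, an inhibitory receptor, was at 269, 312 and 264 CPM with CD103+ DC, 461, 490.0 and 368 with CD8a+ DC and 452 and 435 with CD11b+ DC, a log2 fold change of -0.68 (adjusted p = 0.0117). With Cd22 and Tox higher, it made 3 of 20 inhibitory receptors and regulators that passed. Pdcd1, which encodes PD-1, did not pass (0.37, adjusted p = 0.761), nor did Il2ra, the interleukin 2 receptor alpha chain (0.76, adjusted p = 0.462), which rose against CD8a DC (1.81, adjusted p = 0.0232). Itgae, the T cell's own CD103 integrin chain, was at 396, 388 and 448 CPM with CD103+ DC, 414, 599 and 194 with CD8a+ DC and 284 and 319.6 with CD11b+ DC, and the groups overlapped (0.28, adjusted p = 0.804, 95% interval -0.27 to 0.82). Cd8a had a log2 fold change of 0.18 (adjusted p = 0.53). Of 16 S100, annexin and galectin genes 1 passed, Crip1, a LIM domain protein, which was lower (-0.69, adjusted p = 0.0464). Of 30 T cell receptor response genes Cd69 alone passed. By limma 0 genes passed the equal-weight contrast in the TGF-beta, costimulatory, cell cycle inhibitor, Bcl2 family, glycolysis, sterol and amino acid lists, and their medians lay between 0.04 and 0.23. In each of these lists 0 to 6 genes had an unadjusted p under 0.05, edgeR called 0 or 1 and DESeq2 called 0 to 2. In all, 27 of 493 functional list members passed, 15 higher and 12 lower, against 0.485% of all genes tested; the lists were chosen with earlier results of these data known, so nothing is read from these shares.

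The authors' deposited table gives pairwise results for the same libraries. By its adjusted p-values 103 genes differed from both other groups in one direction, 46 higher and 57 lower. Of the 22 genes above, 21 are among them, and Gm45837 has no adjusted p there. Of the 92 genes past the equal-weight contrast 65 are among the 103. Several of the others, such as Ccr4 and Gzmk, have no adjusted p there and so could not be counted. In the authors' deposited table Itga4 has log2 fold changes of -1.84 and -1.98 against CD8a DC and CD11b DC, and Gcnt1 of 3.68 and 4.71.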

How the data were processed

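RNA of sorted OT-I T cells was sequenced in 8 libraries. Per the submitters' processing notes, the authors used STAR 2.4.2a and DESeq2 (no version named) with GRCm38; how reads were counted, with which annotation release and strand setting, is not given in the sources used here. The deposited table holds, per the file headers, normalized counts (a signal: reads over the library's size factor) for 43432 genes, 759 without a symbol. The authors also deposited stabilized log2 values, which were not used, GC percent, and their results for pairs of groups, with ratio (fold), log2 fold, p-value and adjusted p-value columns.

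Each library's low values stepped by a constant amount, from which reads were recovered, and 100% of the values were whole to within 0.1 of a read. CPM is reads scaled to a library total of 1000000. Depth limits the lowest levels, and floors (3 reads over a group) and intervals cover counting error only.

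Because the values are not raw counts, the main test was limma-trend (limma 3.58.1 under R 4.3.3), run on log2(normalized count + 1) for the 18971 genes whose normalized counts averaged 1 or more. All 8 libraries entered 1 fit of 3 group means, leaving 5 residual degrees of freedom. Its contrasts were CD103 DC against the mean of the other group means, and each pair of groups. Benjamini-Hochberg adjustment ran over all genes of a contrast. Alternatives were library-size scaling, pseudocounts of 0.5 and 5, a mean of at least 10 or no filter, robust empirical Bayes, a replicate block, equal weight per library, each library left out, and edgeR 4.0.16 and DESeq2 1.42.0 on recovered reads. The edgeR fits with a library left out were added after seeing the data.

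Genes were named by rule: all called against each group, except predicted genes and receptor or immunoglobulin segments; in each direction up to 12 more that passed the equal-weight contrast, by the smaller of their pairwise changes, with at least 5 CPM on the higher side and no overlap; up to 4 that passed per functional list; and always Itgae, Cd8a, Ifng, Gzmb, Prf1, Il2ra, Tbx21, Tcf7 and Pdcd1. The comparison and the 24 functional and other marker lists were chosen with earlier results of these data known. The steps were tested on simulated data: for the equal-weight contrast over 18231 genes, they recovered 44 of the 100 2-fold changes and 61 of the 100 4-fold changes, with 6 of 111 calls false.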

Additional observations from a re-analysis of the deposited data

How the results depend on the processing

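The counts reported were 92 genes in the equal-weight contrast, 273 against CD8a DC, 63 against CD11b DC and 22 against each group. With all libraries kept, 8 of 10, 6 of 9, 8 of 9 and 8 of 9 alternatives stayed within 1.5 times these, and of the 8 limma fits with a library left out 0, 1, 1 and 1 did. Without a filter the counts were 60 and 159 for the equal-weight contrast and against CD8a DC. DESeq2 on recovered reads gave 426, 831, 367 and 114 in the order above, and edgeR 105, 254, 63 and 23; of the 22 genes, 21 were called against each group by DESeq2 and 20 by edgeR. Leaving out each library in turn gave 0 to 279, 3 to 480, 0 to 238 and 0 to 79 genes by limma, and 14 to 323, 60 to 479, 1 to 228 and 1 to 81 by edgeR. In fits without a CD11b DC library, the lone library left is assumed to vary like the other groups. All 92 genes kept their sign in the equal-weight contrast in every setting in which they were tested. In the fits with a library left out, the lack of overlap in 87 of these genes all but sets this. Equal weight for each of the 5 other libraries gave 123 genes, 88 of them among the 92, and library-size scaling moved the median of all genes by less than 0.1. Prf1, which passed nowhere, turned from 0.02 to -0.11 with edgeR, -0.10 with DESeq2 and -0.053 with the replicate block, and lay between -0.41 and 0.42 in the fits with a library left out. The cause of these shifts was not tested.

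No shared deviation of same-numbered libraries was seen. Across groups, the correlations of their deviations from the group means lay between -0.031 and 0.023. Deviations from means of so few libraries cannot exclude a pairing. With the replicate number as a block the counts were 78, 181, 49 and 19, and 18 of the 22 genes were called. With 2 or 3 libraries in a group the counts move with single libraries, and genes near 1 CPM rest on few reads. Among the genes named in the text, the equal-weight calls of Crip1 and Btbd11 were kept in 5 of the 10 alternatives with all libraries. Those of Rnft2, Selplg, Tox and Prokr1 were kept in 6, and those of Chst11, Gimap6, Txk and Hpn in 7.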

Other observations

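Some genes that passed the equal-weight contrast by limma, named here after their values were seen, were close to absent in the CD8a DC group. None of them is among the 22 genes called against each group. Mt2, a metallothionein that binds zinc and copper, had 287 reads in the CD103 DC libraries and 0 in the CD8a DC libraries, at least 92.9-fold higher against the floor of 3 reads over the group, and stood at 1.63 and 0.294 CPM in the CD11b DC libraries. Il1r2, the decoy receptor for interleukin 1, had 206 reads against 0 with CD8a+ DC, at least 66.7-fold higher, and 0.0480 and 0.882 CPM with CD11b+ DC. Trpm6, a magnesium channel, had 240 reads against 0 with CD8a+ DC, at least 77.7-fold higher, and 0.763 and 0 CPM with CD11b+ DC. Hpn, the membrane protease hepsin, had 77 reads against 1 with CD8a+ DC and 0 with CD11b+ DC. Prokr1, a prokineticin receptor, had 67 reads against 0 with CD8a+ DC and 2 with CD11b+ DC. Against CD11b DC, edgeR gave adjusted p-values of 0.438, 0.456 and 0.425 for Mt2, Il1r2 and Trpm6, and of 0.211 and 0.434 for Hpn and Prokr1. For Il1r2 and Trpm6 the log2 fold change of the equal-weight contrast moved with single CD11b DC libraries, to 3.98 and 6.21 without replicate 2 and to 5.58 and 4.24 without replicate 3.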
